A study of Mus musculus with 20 samples.

Results

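Agouti and 8 genes of the melanoblast lineage and its signals were followed in single limbs of mouse embryos with and without the transcription factor Lmx1b. The members are the ligands agouti (gene symbol a) and Kitl, the receptors Mc1r, Kit and Ednrb, the transcription factor Mitf, and the melanin enzymes Dct, Tyr and Tyrp1. They were chosen by symbol, as every probe set that the platform's gene table assigns to 1 of these names, which gave 10 probe sets for 9 of the 19936 genes tested. Agouti was listed because its signal was lower in knockouts, so its genotype difference is given below as a description without a test. Embryos were of strain 129Sv at embryonic day 13.5. The 4 groups of 5 arrays were Lmx1b -/- forelimbs, wild-type forelimbs, Lmx1b -/- hindlimbs and wild-type hindlimbs, with 1 limb on each Affymetrix GeneChip 1.0 ST array. Every limb was kept in RNAlater before total RNA was extracted, and no other allele or agent is named for either genotype. Nothing in the labels ties a limb to an embryo. P-values therefore cover variation among the 20 limbs, which may be smaller than that among embryos.

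Agouti is a secreted protein that blocks the melanocortin receptor Mc1r on pigment cells and so turns them from dark to yellow pigment. It is made by mesenchymal cells of the skin, not by the pigment cells. Melanoblasts, the precursors of pigment cells, leave the neural crest and migrate through the embryonic skin. They need Kit, the receptor of the mesenchymal and epidermal factor Kitl, and Ednrb, the receptor of endothelins, and they express Mitf, which switches on the pigment genes, and Dct, an early melanin enzyme. Lmx1b is a LIM homeodomain factor that patterns the dorsal side of the limb mesenchyme.

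Promoter letters of 4 members are shown because the pigment enzymes share a known Mitf binding sequence, the M-box, and agouti belongs to another cell type. The sequences are RefSeq's on GRCm38.p6, read 5′ to 3′ on the gene's strand, and capitals mark GTCATGTGCT, the longest run of letters that the Dct, Tyr and Tyrp1 windows share and the core of the M-box. Agouti (chr2:155013320-155013619, plus strand) and Dct (chr14:118052197-118052496, minus strand) are given from 250 bases before to 50 after the annotated start. Tyr (chr7:87493501-87493560, minus strand) and Tyrp1 (chr4:80834140-80834199, plus strand) are given as 60 bases around the match.
a: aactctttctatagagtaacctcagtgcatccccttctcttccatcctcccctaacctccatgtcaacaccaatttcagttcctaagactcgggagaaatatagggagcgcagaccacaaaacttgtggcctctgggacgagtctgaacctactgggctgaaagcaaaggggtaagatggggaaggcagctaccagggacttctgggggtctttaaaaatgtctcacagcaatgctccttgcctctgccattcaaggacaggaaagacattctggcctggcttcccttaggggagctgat
Dct: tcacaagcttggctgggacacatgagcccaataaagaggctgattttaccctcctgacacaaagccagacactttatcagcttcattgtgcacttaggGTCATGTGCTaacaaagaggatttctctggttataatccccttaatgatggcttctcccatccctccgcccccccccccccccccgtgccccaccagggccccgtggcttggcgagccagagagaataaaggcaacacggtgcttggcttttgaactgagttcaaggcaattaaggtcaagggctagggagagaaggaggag
Tyr: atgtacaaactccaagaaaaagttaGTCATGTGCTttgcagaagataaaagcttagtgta
Tyrp1: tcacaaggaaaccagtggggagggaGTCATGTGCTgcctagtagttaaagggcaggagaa
All 9 members matched the promoter table, with 12 start windows between them. The letters GTCATGTGCT, searched on both strands, stood in the windows of no member other than these 3 and in 61 of 32851 windows of all genes (0.186%). The presence of these letters in Dct, Tyr and Tyrp1 follows from how the letters were picked. In Dct the match began 152 bases before the annotated start, in Tyr 23 and in Tyrp1 48. The shorter E-box CATGTG, which lies inside the M-box core, also stood in the Mc1r window and in 14.2% of all windows. TAATTA, a palindrome that many homeodomain factors bind, was found in none of the agouti, Dct or Ednrb windows and in 1 of the Mitf windows, against 5.29% of all windows. For agouti 1 start window was searched, and any other starts of the gene were not looked at. A match or its lack describes these letters only. The motifs were chosen with the expression results known.

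The targeted gene followed the labels. Lmx1b averaged 5.72 ± 0.08 in knockout and 6.30 ± 0.13 in wild-type forelimbs, and 5.92 ± 0.11 in knockout and 6.45 ± 0.08 in wild-type hindlimbs (log2 intensity, mean ± SD, n = 5 each). Where its probe set lies relative to the deleted part was not analysed here. Array medians of the deposited intensities ran from 28.6 to 31.8, and no array pair held identical values. Y-linked genes read 13 arrays as male and 7 as female. All 5 wild-type forelimbs were male, against 2 of 5 knockout forelimbs, 3 of 5 knockout hindlimbs and 3 of 5 wild-type hindlimbs. As a guide to dim signals, 1027 olfactory receptor genes had a median level of 3.26 and a 95th percentile of 4.38 on the log2 scale. Agouti, Kit, Kitl and Ednrb exceeded that percentile on all 20 arrays, Mc1r and Mitf on 16, and Dct on 11. Tyr and Tyrp1 exceeded it on 0, so their values below are at the level of genes not known for limb expression. Whole limbs were measured, so fewer cells of a type and less RNA per cell cannot be told apart.

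**Figure D1:**
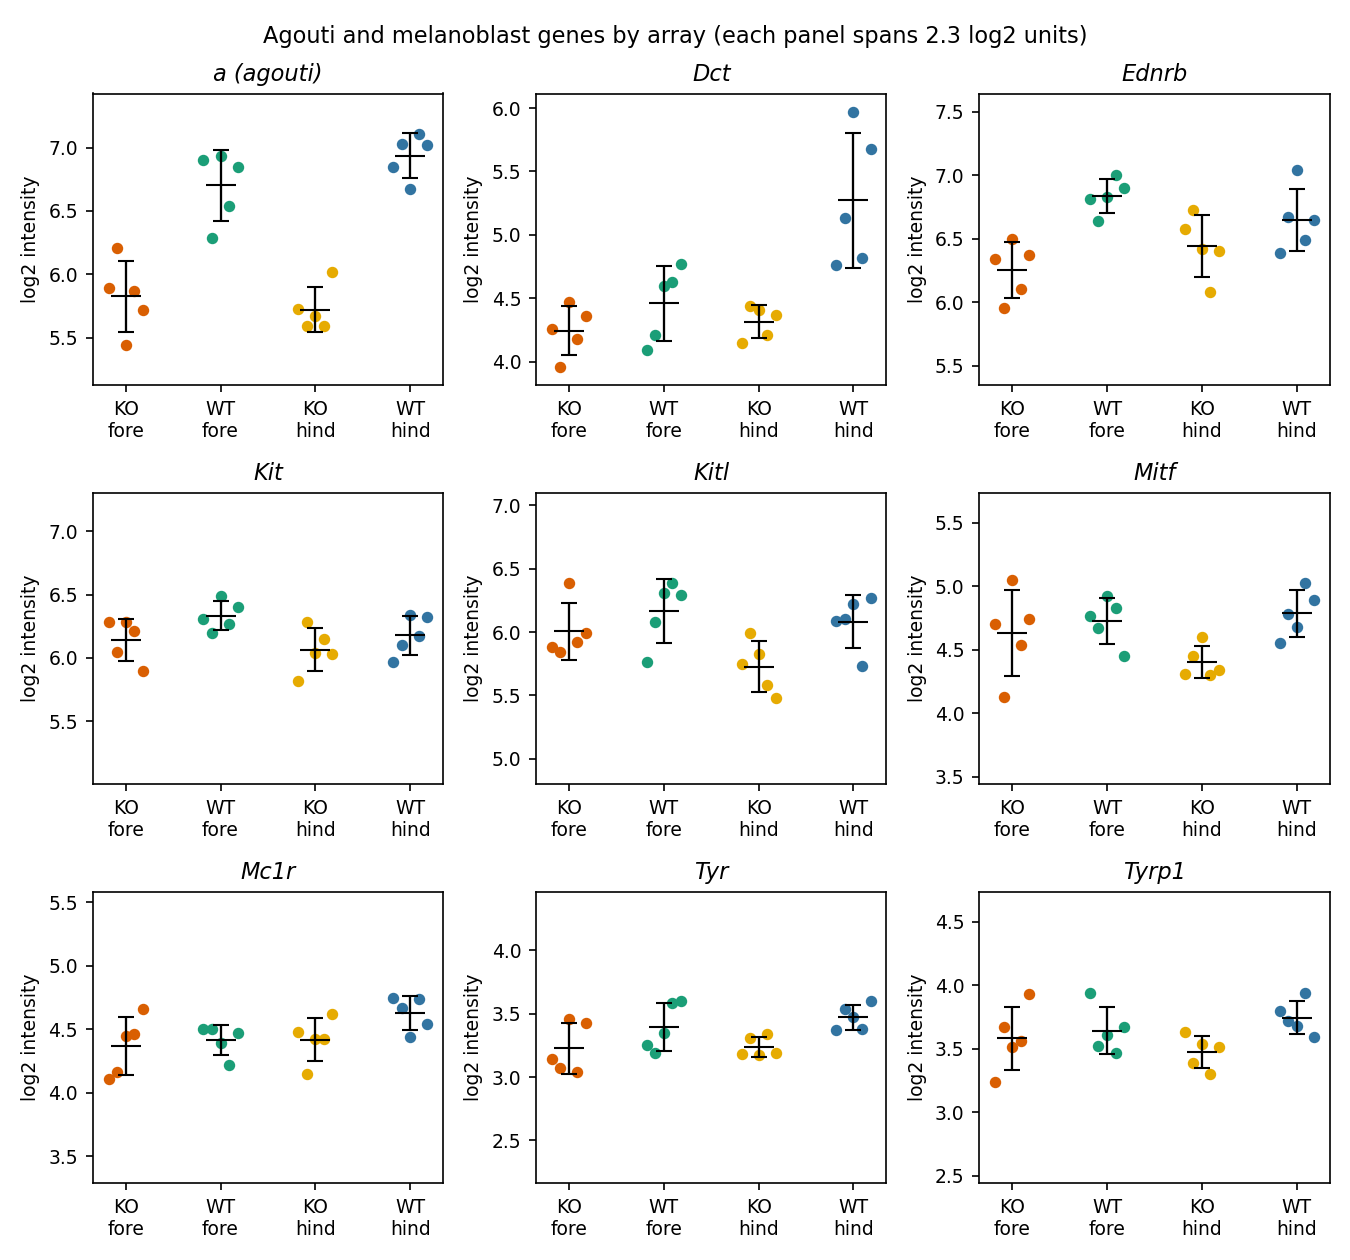
Log2 intensity (vertical axis) of each of the 9 genes in knockout (KO) and wild-type (WT) forelimbs and hindlimbs. Points are single arrays, bars the mean ± SD of 5 arrays. Agouti separates the genotypes in both limb types, Dct stands highest in wild-type hindlimbs, and Ednrb separates the genotypes in forelimbs.

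Agouti was lower in knockouts in both limb types. In forelimbs its log2 intensities were 5.89, 6.21, 5.44, 5.87 and 5.72 in knockouts, against 6.90, 6.29, 6.93, 6.54 and 6.85 in wild type. In hindlimbs they were 5.73, 5.59, 5.67, 5.59 and 6.02 in knockouts, against 6.85, 7.03, 6.67, 7.11 and 7.02 in wild type. Every knockout limb lay below every wild-type limb of its limb type; among all genes 0.271% had that order in both limb types, and for agouti it follows from how the gene was chosen. The highest knockout forelimb, at 6.21, came near the lowest wild-type forelimb, at 6.29. The log2 difference was -0.88 (SE 0.134, 1.84-fold lower) in forelimbs, -1.22 (SE 0.134, 2.32-fold lower) in hindlimbs and -1.05 (SE 0.0946, 2.07-fold lower) over both. With male arrays alone it was -1.13 over both limb types, and with the mean level of 10 muscle genes as a covariate -1.04.

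Contrasts that played no part in choosing agouti gave no call for it. Its genotype difference in hindlimbs minus that in forelimbs was -0.34 (SE 0.189, 95% interval -0.73 to 0.05, adjusted p = 1 with limma). Hindlimbs minus forelimbs gave 0.23 in wild type (interval -0.04 to 0.51, adjusted p = 0.404) and -0.11 in knockouts (interval -0.38 to 0.17, adjusted p = 0.868). Left minus right gave 0.07 (interval -0.13 to 0.27, adjusted p = 0.847). In order of level, wild-type hindlimbs (6.94 ± 0.18) and wild-type forelimbs (6.70 ± 0.28) came first, followed by knockout forelimbs (5.83 ± 0.28) and knockout hindlimbs (5.72 ± 0.18). Neighbours of the same genotype in that order overlapped.

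None of the genes beside agouti on its chromosome passed the test. Of the 20 nearest named and measured genes, 10 on each side, 0 were called by limma over both limb types (2.04% of all genes were) and 1, Acss2, had an unadjusted p under 0.05. Their log2 differences ran from -0.10 to 0.17 with a median of 0.01. Eif2s2 and Raly, which stand next before agouti in gene order, had 0.07 and 0.00, and Itch and Dynlrb1, next after it, had -0.05 and 0.03. Acss2 reached 0.17 (adjusted p = 0.111) and passed when arrays were centred on their medians (0.20, adjusted p = 0.0333) or quantile normalized (0.19, adjusted p = 0.0245).

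**Figure D2:**
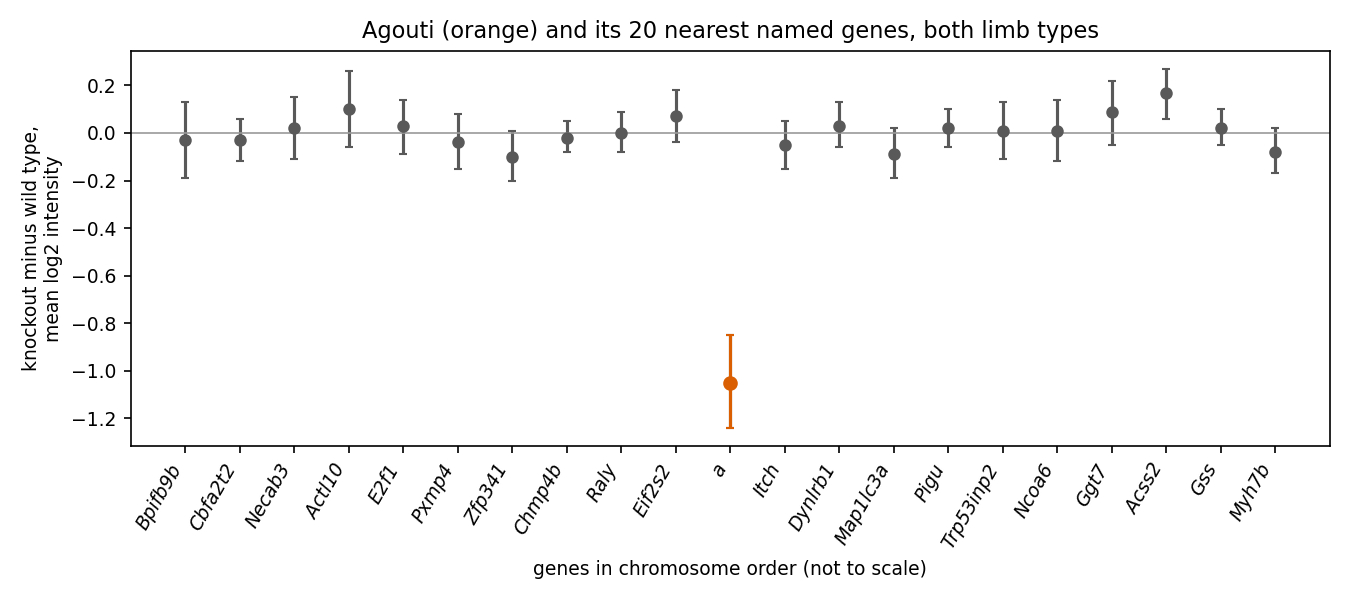
Log2 difference, knockout minus wild type over both limb types (vertical axis, points with 95% intervals), of agouti in orange and its 20 nearest named genes in grey, in chromosome order (horizontal axis, not to scale). Agouti stands at -1.05 and its neighbours between -0.10 and 0.17.

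Kitl, the ligand of Kit, did not pass the test in any comparison with all arrays. It had 5.88, 5.84, 6.39, 5.92 and 5.99 in knockout forelimbs, against 5.76, 6.08, 6.31, 6.39 and 6.29 in wild-type forelimbs. In hindlimbs it had 5.75, 5.99, 5.83, 5.58 and 5.48 in knockouts, against 6.09, 6.10, 6.22, 5.73 and 6.27 in wild type. The groups overlapped in both limb types. Its log2 difference over both was -0.26 (interval -0.45 to -0.07, adjusted p = 0.164), and without wild-type forelimb replicate 1 it passed (-0.31, adjusted p = 0.0485).

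Ednrb was lower in knockout forelimbs. Its values there were 6.34, 5.95, 6.50, 6.10 and 6.37, against 6.81, 6.64, 6.83, 7.0 and 6.90 in wild-type forelimbs. In hindlimbs they were 6.58, 6.73, 6.42, 6.08 and 6.40 in knockouts, against 6.39, 6.67, 7.04, 6.49 and 6.65 in wild type. The forelimb groups did not overlap, as was so for 1.72% of all genes, whereas 4 of 5 knockout hindlimbs lay within the wild-type range. The log2 difference was -0.59 in forelimbs (SE 0.124, 1.5-fold lower, adjusted p = 0.017), -0.21 in hindlimbs (interval -0.47 to 0.05, adjusted p = 0.924) and -0.40 over both (SE 0.088, adjusted p = 0.0174). The difference between the 2 genotype effects was 0.38 (interval 0.01 to 0.74) and did not pass (adjusted p = 1, unadjusted p = 0.0447). The forelimb call ended without knockout replicate 2 (adjusted p = 0.06) or 4 (0.0645), without wild-type replicate 4 (0.0596) or 5 (0.0565), with male arrays alone (-0.48, adjusted p = 0.338) and with Y-linked signal added to the fit (-0.61, adjusted p = 0.0507). With the muscle covariate the forelimb value was -0.36 (adjusted p = 0.575). Ednrb is also an endothelial gene. Of the other 9 genes listed for endothelium, 2 (Tek and Emcn) fell over both limb types, with a median of -0.11, and their mean level ran from 6.56 to 6.94 in knockout forelimbs, against 6.74 to 7.05 in wild-type forelimbs. With Ednrb counted, 5 of the 10 endothelial genes had an unadjusted p under 0.05 over both limb types, all lower. The share of all genes at that level was not counted. Tek, the receptor of angiopoietins, had a log2 difference of -0.44 (adjusted p = 0.000642), and Emcn, an endothelial sialomucin, of -0.29 (adjusted p = 0.0136). Neither passed with male arrays alone (adjusted p = 0.111 for Tek and 0.329 for Emcn). The part of endothelium in the Ednrb difference was not tested.

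The receptors Kit and Mc1r gave no call. Kit ran from 5.90 to 6.28 in knockout and 6.20 to 6.49 in wild-type forelimbs, and from 5.82 to 6.28 in knockout and 5.97 to 6.34 in wild-type hindlimbs. Its log2 difference over both was -0.15 (interval -0.29 to -0.02, adjusted p = 0.266). Kit also marks mast cells, and of the 10 genes listed for them 0 passed, with a list median of -0.08. An unadjusted p under 0.05, with no share of all genes counted, was found for 4 of the 10, Kit included, all lower in knockouts. Cpa3, a mast cell protease, had the widest spread of these, with 5.73 ± 0.75 in knockout and 6.85 ± 0.42 in wild-type forelimbs, and a log2 difference of -0.73 over both limb types (adjusted p = 0.135). Mc1r, the receptor on which agouti acts, ran from 4.11 to 4.66 in knockout and 4.22 to 4.50 in wild-type forelimbs, and from 4.15 to 4.62 in knockout and 4.44 to 4.75 in wild-type hindlimbs. Its difference over both was -0.13 (interval -0.28 to 0.02, adjusted p = 0.414).

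Mitf, the lineage's transcription factor, ran from 4.13 to 5.05 in knockout and 4.45 to 4.92 in wild-type forelimbs. In hindlimbs it ran from 4.30 to 4.60 in knockouts, against 4.55 to 5.03 in wild type, and 4 of 5 knockouts lay below the wild-type range. The log2 difference was -0.24 over both limb types (interval -0.43 to -0.05, adjusted p = 0.2) and -0.38 in hindlimbs (interval -0.65 to -0.12, adjusted p = 0.515). A second Mitf probe set read between 1.66 and 2.39 on all arrays and gave -0.15 (adjusted p = 0.377 among all probe sets).

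Dct, the enzyme that converts dopachrome in melanin synthesis and an early melanoblast marker, had its high values in wild-type hindlimbs. In forelimbs it read 4.26, 3.96, 4.47, 4.18 and 4.36 in knockouts, against 4.09, 4.21, 4.60, 4.63 and 4.77 in wild type. In hindlimbs it read 4.15, 4.44, 4.41, 4.21 and 4.37 in knockouts, against 4.76, 5.13, 5.97, 4.82 and 5.68 in wild type. Every knockout hindlimb lay below every wild-type hindlimb, as was so for 0.903% of all genes, and the wild-type hindlimbs spread over more than 1 log2 unit. The forelimb groups overlapped. Dct lay under the dim level of 4.38 on 3 of 5 knockout hindlimb, 4 of 5 knockout forelimb and 2 of 5 wild-type forelimb arrays, so no fold is given for it. The log2 difference was -0.96 in hindlimbs (SE 0.183, adjusted p = 0.0186), -0.22 in forelimbs (interval -0.60 to 0.16, adjusted p = 0.666) and -0.59 over both (SE 0.129, adjusted p = 0.0171). The difference between the 2 genotype effects was -0.74 (interval -1.28 to -0.20) and did not pass (adjusted p = 1, unadjusted p = 0.00921). The hindlimb call ended without knockout replicate 6 (adjusted p = 0.0741) or 9 (0.0652), without wild-type replicate 10 (0.0912), with male arrays alone (-0.82, adjusted p = 0.488), with all probe sets tested (0.0715) and with only the compared groups fitted (0.117).

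Tyr and Tyrp1, the other melanin enzymes, stayed at the level of the dim genes. Tyr ran from 3.04 to 3.46 in knockout and 3.19 to 3.60 in wild-type forelimbs, and from 3.17 to 3.34 in knockout and 3.37 to 3.60 in wild-type hindlimbs. Every knockout hindlimb lay below every wild-type hindlimb in Tyr, as was so for 0.903% of all genes. Neither the hindlimb difference (-0.23, interval -0.43 to -0.04, adjusted p = 0.744) nor that over both limb types (-0.20, adjusted p = 0.13) passed. With array weights in the fit the difference over both limb types passed (-0.24, adjusted p = 0.031). Tyrp1 ran from 3.24 to 3.93 in knockout and 3.47 to 3.94 in wild-type forelimbs, and from 3.30 to 3.63 in knockout and 3.59 to 3.94 in wild-type hindlimbs. Its difference over both was -0.17 (interval -0.32 to -0.01, adjusted p = 0.308).

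Counted together, 3 of the 9 genes (agouti, Dct and Ednrb) were lower in knockouts over both limb types and 0 higher, where 1.57% of all genes were lower, 0.466% higher and 2.04% passed in either direction. In forelimbs the 2 that passed were agouti and Ednrb (1.03% of all genes lower). In hindlimbs they were agouti and Dct (0.226% of all genes lower). At an unadjusted p under 0.05 were 8 of the 9 over both limb types, 2 in forelimbs and 7 in hindlimbs, all lower. The 8 and the 7 include Tyr and Tyrp1, which exceeded the dim level on 0 arrays. The share of all genes at that unadjusted level was not counted, here or for any list. Agouti's share in these counts follows from how it was chosen. All 9 log2 differences over both limb types were negative, with a median of -0.24 against -0.00 over all genes. The difference between the genotype effects passed for 0 of 9 genes, with 2 (Dct and Ednrb) at an unadjusted p under 0.05, and for 0.0201% of all genes.

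**Figure D3:**
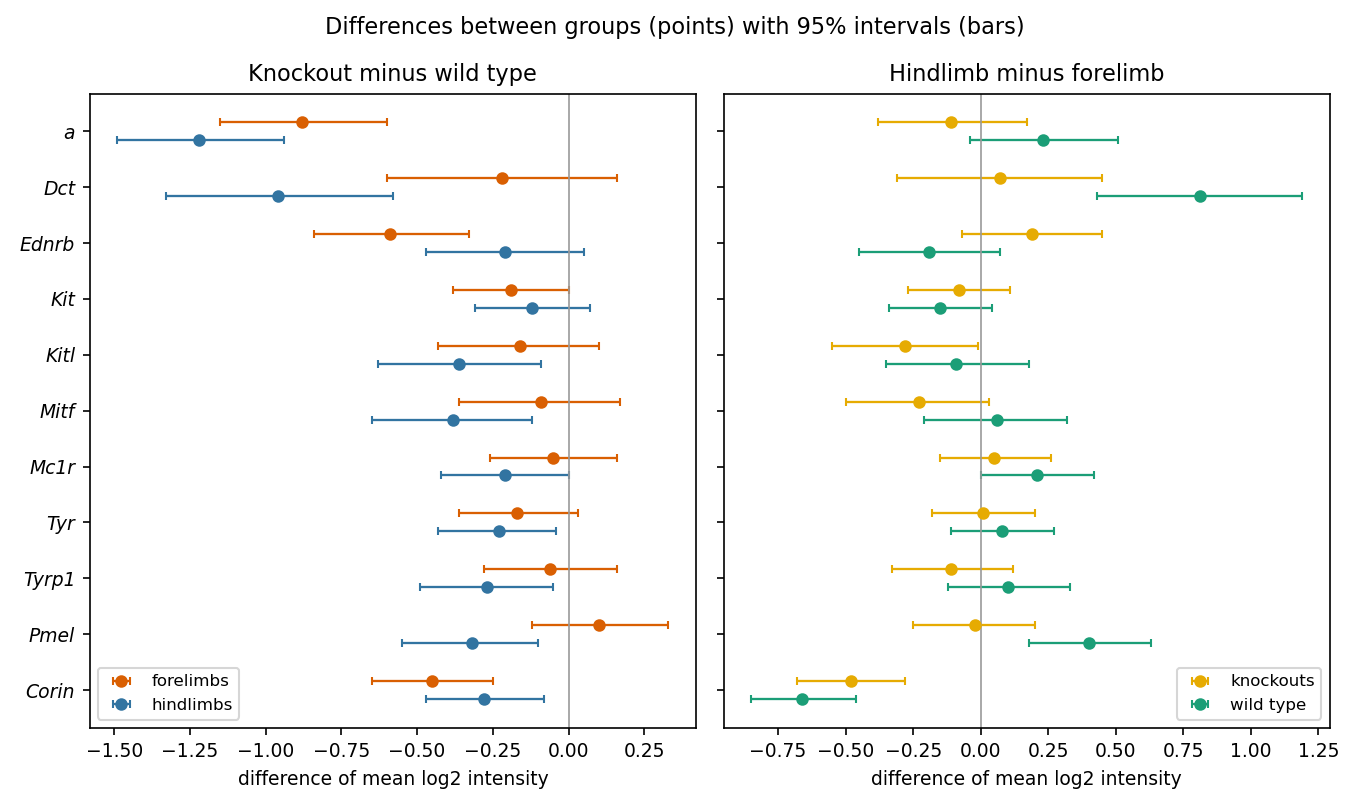
Differences of mean log2 intensity (horizontal axes, points) with 95% intervals (bars) for the 9 genes and for Pmel and Corin. The left panel gives knockout minus wild type in forelimbs and hindlimbs, the right panel hindlimb minus forelimb in knockouts and wild type. Agouti is low in knockouts of both limb types, and Dct differs between wild-type hindlimbs and forelimbs by 0.81.

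Between limb types, a contrast not used to choose the members, Dct passed in wild type and agouti did not; whether their differences differ was not tested. In wild type, Dct averaged 5.27 ± 0.53 in hindlimbs and 4.46 ± 0.29 in forelimbs (n = 5 each), a log2 difference of 0.81 (SE 0.183, adjusted p = 0.0147). The hindlimb array lowest in Dct, at 4.76, lay just under the highest forelimb, at 4.77, and the other 4 lay above all forelimbs. Dct was the only 1 of the 9 genes to pass there, where 3.26% of all genes passed, 0.772% higher and 2.49% lower in hindlimbs. In knockouts Dct was at 4.32 ± 0.13 in hindlimbs and 4.25 ± 0.19 in forelimbs (difference 0.07, interval -0.31 to 0.45, adjusted p = 0.951). There 0 of the 9 genes passed, 1 (Kitl) had an unadjusted p under 0.05, and 0.617% of all genes passed. The wild-type call for Dct ended with male arrays alone (0.63, adjusted p = 0.111) and when only the compared groups were fitted (adjusted p = 0.0598). All 10 muscle genes listed were lower in wild-type hindlimbs than in wild-type forelimbs, and with their level as a covariate Dct differed by 1.59 (adjusted p = 0.0142). The muscle level did not overlap between these groups, with 7.87 to 8.41 in wild-type forelimbs and 7.16 to 7.61 in wild-type hindlimbs. That fit can therefore hardly tell limb type from muscle level, and its larger Dct difference is not a stronger result. Between sides, 0 of the 9 genes passed the limma test, 0 had an unadjusted p under 0.05, and 0% of all genes passed.

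**Figure D4:**
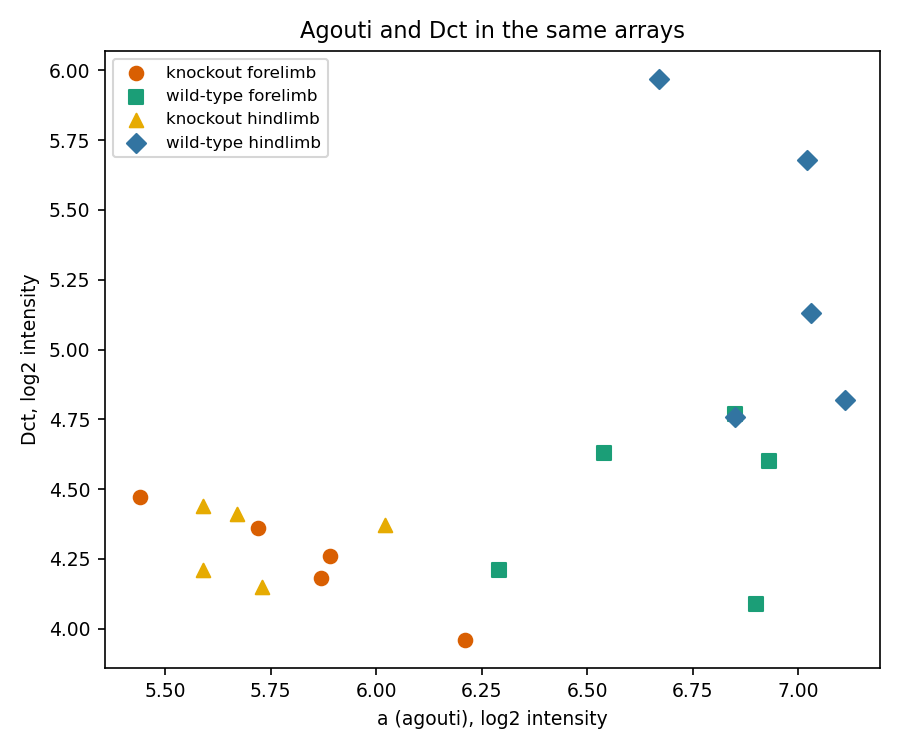
Log2 intensity of agouti (horizontal axis) and Dct (vertical axis) in each of the 20 limbs, by group. Knockouts lie at agouti levels of 5.44 to 6.21 and Dct levels of 3.96 to 4.47, and wild-type limbs at agouti levels of 6.29 to 7.11, where Dct runs from 4.09 to 5.97.

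Among 20 genes listed for melanoblasts and melanocytes, 2 (Dct and Ednrb) were lower in knockouts over both limb types and 0 higher. The median log2 difference was -0.10, and 19 of the 20 differences were negative. At an unadjusted p under 0.05 were 9 of the 20, all lower. A shorter list took 8 of them as defining: Dct, Pmel, Tyrp1, Tyr, Mlana, Sox10, Slc45a2 and Mitf. Of these only Dct passed over both limb types. The mean level of the 8 ran from 4.14 to 4.45 in knockout and 4.25 to 4.40 in wild-type forelimbs. In hindlimbs that mean ran from 4.22 to 4.28 in knockouts, against 4.46 to 4.65 in wild type. At an unadjusted p under 0.05 were 4 of the 8 over both limb types, 0 in forelimbs and 5 in hindlimbs, all lower. For the 8 and for the 20 genes, the share of all genes at that level was not counted. Sox10, a neural crest and melanoblast transcription factor, had a difference of -0.07 over both (adjusted p = 0.477), and Mlana, a melanosome protein, of -0.02 (adjusted p = 0.901). Pmel, the fibril protein of melanosomes, was, like Dct, higher in wild-type hindlimbs than in wild-type forelimbs. It read 4.83, 4.78, 4.92, 4.64 and 4.84 in wild-type hindlimbs, against 4.09, 4.35, 4.39, 4.52 and 4.64 in wild-type forelimbs. The log2 difference was 0.40 (adjusted p = 0.0429), and leaving out 1 array ended the call in 11 of 20 fits (adjusted p up to 0.0979). With the muscle covariate the Pmel difference was 0.82 (adjusted p = 0.0917), with the limit given above for Dct in that fit. Pmel in knockouts differed by -0.02 between limb types (adjusted p = 0.976), and its genotype difference did not pass over both limb types (-0.11, adjusted p = 0.542). Of the 8 genes, Dct and Pmel passed between wild-type limb types. All 8 differences there were positive, with a median of 0.11 against 0.02 over all genes. All 8 were also positive for left minus right, where 0 passed, with a median of 0.06 against -0.01 over all genes. Between limb types in knockouts, 4 of the 8 differences were positive and 4 negative.

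In the agouti and melanocortin list, 12 of 14 genes were measured by a probe set of their own, and agouti and Corin were lower in knockouts, with a median of -0.11. Corin, a protease of the dermal papilla that in mouse reduces agouti's effect on hair colour, read 5.73, 5.35, 5.87, 5.36 and 5.80 in knockout forelimbs, against 5.91, 6.01, 6.07, 6.18 and 6.19 in wild-type forelimbs. In hindlimbs it read 4.99, 5.22, 5.19, 5.13 and 5.17 in knockouts, against 5.48, 5.59, 5.38, 5.26 and 5.37 in wild type. Every knockout lay below every wild type of its limb type, as was so in both limb types for 0.271% of all genes. The log2 difference was -0.36 over both (SE 0.067, adjusted p = 0.00424), and it missed the threshold with male arrays alone (-0.28, adjusted p = 0.156) and with the muscle covariate (-0.27, adjusted p = 0.069). Corin passed between limb types, with -0.66 for hindlimbs minus forelimbs in wild type (adjusted p = 0.000403) and -0.48 in knockouts (adjusted p = 0.0156). With the muscle covariate neither passed (-0.32, adjusted p = 1 in wild type, and -0.30, adjusted p = 0.59 in knockouts). In wild type the muscle level did not overlap between limb types, so that fit can hardly tell limb type from muscle level. The knockout call for Corin also ended when only the compared groups were fitted (adjusted p = 0.11). It ended too without knockout forelimb replicate 1 (0.0577) or 3 (0.0656). Whether the limb-type differences of Corin and agouti differ was not tested. The melanocortin receptor Mc5r was lower in wild-type hindlimbs than in wild-type forelimbs (-0.45, adjusted p = 0.0147) and gave no call between genotypes (-0.14, adjusted p = 0.38). The limb-type call for Mc5r ended with the muscle covariate (-0.10, adjusted p = 1), without wild-type forelimb replicate 3 (0.0544) or 5 (0.052) and without wild-type hindlimb replicate 6 (0.0511).

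Of 14 genes listed for melanoblast guidance and survival, 13 were measured. Ednrb fell, and Hgf, the ligand of the receptor Met, rose by 0.31 on the log2 scale (adjusted p = 0.0481). Hgf averaged 5.20 ± 0.21 in knockout and 4.91 ± 0.16 in wild-type forelimbs, and 5.54 ± 0.18 in knockout and 5.21 ± 0.22 in wild-type hindlimbs. Leaving out 1 array ended the Hgf call in 13 of 20 fits (adjusted p up to 0.103). The median of the 13 differences was -0.09.

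Lists for the other cells of the limb give the setting of these values. Over both limb types, 0 of 10 neural crest genes, 0 of 12 limb mesenchyme genes and 0 of 10 epidermal genes passed, with 2, 2 and 0 of them at an unadjusted p under 0.05 and medians of -0.05, 0.03 and -0.10. Of 8 measured genes for Schwann cell precursors, from which some melanoblasts arise, Gap43, an axonal and nerve growth protein, fell (-0.40, adjusted p = 2.26e-05), and the median was -0.10. Of 14 dermal genes 6 fell: Lum and Dcn, proteoglycans of the matrix, by 1.18 and 0.81 on the log2 scale, and Col3a1, Lox, Alpl and Corin, with a list median of -0.29. At an unadjusted p under 0.05 were 10 of the 14 dermal genes, all lower. The share of all genes at that level was not counted for any of these lists. The Lox call ended in 14 of 20 fits with 1 array left out (adjusted p up to 0.0803). With male arrays alone Lum alone of the 6 passed, and with the muscle covariate Lum and Dcn passed while Col3a1 (adjusted p = 0.0607), Lox (0.371), Alpl (0.108) and Corin (0.069) did not. The dermal list's mean level ran from 7.16 to 7.66 in knockout and 7.61 to 8.01 in wild-type forelimbs, and from 7.22 to 7.56 in knockout and 7.36 to 7.70 in wild-type hindlimbs. Of 10 muscle genes 3 fell (Tnnt2, Actn2 and Mylpf; median -0.15), and the list's level ran from 7.54 to 8.0 in knockout and 7.87 to 8.41 in wild-type forelimbs, and from 7.24 to 7.63 in knockout and 7.16 to 7.61 in wild-type hindlimbs. With the muscle level as a covariate, Dct (-0.38, adjusted p = 0.227) and Ednrb (-0.28, adjusted p = 0.228) missed the threshold over both limb types. In the same fit the Dct difference was -0.93 in hindlimbs (adjusted p = 0.00231), close to the -0.96 without the covariate, and 0.18 in forelimbs (adjusted p = 0.943), against -0.22 without it. As muscle level differed between genotypes in forelimbs, that fit can only partly tell genotype from muscle level there. The part of dermal or muscle content in the members' differences was not tested otherwise. Of 6 measured genes named in mouse agouti or coat pattern work, Lmx1b alone passed between genotypes, and their median was -0.09.

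The genes most like agouti differed with how likeness was measured. Over the 20 arrays, which includes the genotype difference, Pearson's r was highest for Gabrb2 (0.88), Cdh8, Kera and Sstr1 (0.87 each) and Gap43 (0.85) among 13017 genes above the dim level. Each of these 5 was also lower in knockouts, and Kera, a corneal and tendon matrix protein, had a log2 difference of -2.98. Once each array was set against its own group mean, r was highest for Ccne2 (0.84), a cyclin of the G1 to S step, Lin28b (0.80), an RNA-binding protein of early embryonic stages, Snrpd1 (0.78), a splicing core protein, and Nnat and Trmo (0.77 each). Within groups, agouti's r was -0.26 with Dct, -0.34 with Ednrb, -0.51 with Kitl, -0.32 with Mitf, -0.28 with Tyr, -0.03 with Kit, 0.01 with Mc1r and 0.31 with Tyrp1. Over the 20 arrays, genotype difference included, agouti's r with these members ran from 0.32 (Kitl) to 0.56 (Dct). These r values describe 20 arrays that share processing and are given without a test.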

How the data were processed

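Single-limb RNA was hybridised to Affymetrix GeneChip 1.0 ST arrays. Per the submitters' processing notes RMA produced the deposited values, which are linear intensities per probe set. Its version and the authors' annotation were not given in the sources used here. No scanner output was analysed here. The log2 of the deposited intensities was taken here with no pseudocount. Of 35512 probe sets, 21789 carried 1 gene symbol, updated by Entrez identifier or accession through RefSeq (GRCm38.p6), and the probe set with the highest mean stood for each of 19936 genes.

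One limma 3.58.1 fit (R 4.3.3) with 4 group means over all 20 arrays gave every comparison except left against right. For that comparison side was added to the 4 group means. P-values were adjusted over all genes by Benjamini-Hochberg, with a threshold of 0.05. The fit was tested on simulated data. Named were the 9 members, Lmx1b, up to 4 genes per list by smallest p or any gene in a count of 5 or fewer, the nearest 5 neighbours of agouti on each side, and the 5 genes most like it by each measure. Sox10, Mlana, Lox and Acss2 lie outside that rule and were named after their values were seen. The members and the 15 lists (agouti and melanocortin, melanoblast, guidance, neural crest, Schwann, mast cell, endothelium, mesenchyme, dermal, epidermal, muscle, regulators, Y-linked and others) were chosen with earlier results of these data known. The main fit did not pair arrays by the titles' numbers. Deviations from group means correlated between -0.313 and 0.256 over 10 same-numbered pairs. Differently numbered pairs were not compared, so these values cannot settle whether the numbers pair the arrays. The number of arrays limits the precision.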

Additional observations from a re-analysis of the deposited data

Results flagged for a closer look

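Of 68 groups of 5 arrays examined, 2 held an array far from the others, and chance alone gives about 1 in 20. Kitl in knockout forelimbs had its highest value, 6.39, in replicate 3, with the nearest at 5.99. Hgf in knockout hindlimbs had its lowest value, 5.23, in replicate 6, with the nearest at 5.57.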

How the results depend on the processing

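Each result was recomputed under up to 13 other settings, as far as each applied, and with each of the 20 arrays left out. Agouti's log2 difference kept its sign in all of them. Counts of members other than agouti that passed depended on the setting. With male arrays only, 0 members passed over both limb types, in forelimbs, in hindlimbs and between wild-type limb types, the melanoblast list and the guidance list had 0 calls, and the agouti list 1. That setting holds 13 arrays, so it has fewer samples. With the muscle covariate, 0 passed over both limb types and in forelimbs, the melanoblast list had 0, and the agouti and guidance lists 1 each. The Y-linked covariate left 0 members in forelimbs and 1 guidance gene. Testing all probe sets left 0 members in hindlimbs and 1 guidance gene. Fitting only the compared groups left 0 members in hindlimbs and 0 between wild-type limb types. Median centring and quantile normalization each called 1 neighbour of agouti. The causes were not tested. Leaving out 1 array gave 0 to 1 members in forelimbs, 0 to 1 in hindlimbs and 1 to 3 guidance genes. A replicate block by the titles' numbers kept Dct (-0.59, adjusted p = 0.00694) and Ednrb (-0.40, adjusted p = 0.0182) over both limb types. It changed no other member's genotype call. The labels name no embryo or litter shared by same-numbered samples. With a random block of genotype and description number the consensus correlation was -0.0517. Depth is not defined for arrays, and signals near the dim level limit Tyr, Tyrp1, Mc1r, Mitf, Dct, Pmel, Mlana and Slc45a2.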
